A study of Mus musculus with 11 samples.

Results

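OTX2 ChIP-seq peaks that flank promoters are described here, that is, EpiSC peaks with a midpoint 500 to 2000 bp from the nearest transcription start site (TSS) on chromosomes 1 to 19 and X. The TSSs were those of all transcripts in the GENCODE vM1 annotation of mm9, at 86803 distinct positions. Of 103109 OTX2 peaks on these chromosomes, 11784 lay at this distance, which is 11.4% of the list (11.2 to 11.6%, 95% Wilson interval). These flanking peaks were chosen by the distance of their midpoints in this list, so that the distance is a description here and not a result.

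The cells were epiblast stem cells (EpiSCs) of the mouse strain 129/Sv, a pluripotent line that stands for the epiblast after implantation. They were kept without feeder cells in DMEM/F12 with N2 and B27, with activin at 20 ng/ml and Fgf2 at 10 ng/ml, and the second culture was without activin for the last 18 h. In both, a transfected plasmid expressed BirA, a biotin ligase, and 1 of 5 TFs (ZIC2, OTX2, SOX2, POU5F1 or POU3F1) fused to BLRP, a sequence that BirA biotinylates, and biotin was added after 8 h. The TF was therefore an exogenous, tagged copy in transiently transfected cells, and every TF was profiled in 1 library of each culture. No value has a replicate error, no difference between cultures was tested, and the Wilson and Poisson intervals given below cover counting error only. Each peak has a MACS score, which is 10 times the negative log10 of its p-value and was 50 or more in all 10 lists. Read depth is unknown, and activin-free OTX2 peaks were wider than EpiSC OTX2 peaks, with a median of 1034 bp against 803 bp.

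OTX2 is a homeodomain TF of the bicoid type, which binds DNA at sequences around TAATCC, or GGATTA on the other strand. It acts in the epiblast as cells leave the naive state and is later required for the anterior neural plate. ZIC2 is a zinc finger TF that binds GC-rich sequences, and many promoters lie in CpG islands, stretches that are rich in G, C and the CpG dinucleotide. A peak that flanks a promoter can therefore lie on the shoulder of a CpG island while the TSS itself lies within it.

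The sequences of 5 flanking peaks are shown as examples, taken from named peaks with GGATTA near the midpoint. They are 201 bp of the mm9 reference centered on the peak midpoint, written 5′ to 3′ on the strand of the gene, with each GGATTA or TAATCC in capitals. The reference is of another strain than the cells.
Fezf2 (chr14:13179293-13179493, minus strand): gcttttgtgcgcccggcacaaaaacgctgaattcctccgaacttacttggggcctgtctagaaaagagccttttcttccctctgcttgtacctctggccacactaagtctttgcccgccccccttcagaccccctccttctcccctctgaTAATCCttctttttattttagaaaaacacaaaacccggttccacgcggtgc
Etv5 (chr16:22402774-22402974, minus strand): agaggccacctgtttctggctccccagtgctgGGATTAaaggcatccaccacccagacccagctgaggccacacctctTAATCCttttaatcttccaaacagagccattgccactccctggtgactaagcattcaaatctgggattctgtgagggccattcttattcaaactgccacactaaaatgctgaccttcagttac
Hey2 (chr10:30563403-30563603, minus strand): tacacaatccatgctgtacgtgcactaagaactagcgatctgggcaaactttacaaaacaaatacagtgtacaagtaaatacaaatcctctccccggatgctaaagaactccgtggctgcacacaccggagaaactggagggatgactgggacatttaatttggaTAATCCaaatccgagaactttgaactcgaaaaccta
Notch2 (chr3:97818241-97818441, plus strand): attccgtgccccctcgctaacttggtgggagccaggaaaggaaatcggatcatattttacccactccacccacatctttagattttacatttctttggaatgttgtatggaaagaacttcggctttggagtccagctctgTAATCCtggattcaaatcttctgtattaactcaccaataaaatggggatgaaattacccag
Lrrc1 (chr9:77393798-77393998, minus strand): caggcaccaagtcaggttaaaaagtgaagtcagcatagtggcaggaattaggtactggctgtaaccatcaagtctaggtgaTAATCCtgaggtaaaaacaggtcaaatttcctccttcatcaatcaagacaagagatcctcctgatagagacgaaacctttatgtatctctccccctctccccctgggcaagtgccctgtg
Fezf2 codes for a TF of the anterior neural plate, Etv5 for an ETS factor that acts downstream of FGF, Hey2 for a target of Notch signaling, Notch2 for a Notch receptor, and Lrrc1 for a protein with leucine-rich repeats. Peaks whose window overlapped an annotated exon had been left out when the examples were chosen. At Hey2, Notch2 and Lrrc1, unlike at Fezf2 and Etv5, the 150 bp upstream of the TSS were much richer in CpG than the peak, and they are shown for this contrast with CG in capitals.
Hey2 promoter (chr10:30562608-30562757, minus strand): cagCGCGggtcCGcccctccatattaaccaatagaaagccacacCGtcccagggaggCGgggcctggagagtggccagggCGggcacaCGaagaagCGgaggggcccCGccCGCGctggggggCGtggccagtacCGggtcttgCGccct
Notch2 promoter (chr3:97817311-97817460, plus strand): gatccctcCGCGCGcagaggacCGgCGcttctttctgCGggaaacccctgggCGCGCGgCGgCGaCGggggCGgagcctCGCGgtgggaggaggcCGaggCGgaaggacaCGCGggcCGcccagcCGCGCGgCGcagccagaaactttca
Lrrc1 promoter (chr9:77392678-77392827, minus strand): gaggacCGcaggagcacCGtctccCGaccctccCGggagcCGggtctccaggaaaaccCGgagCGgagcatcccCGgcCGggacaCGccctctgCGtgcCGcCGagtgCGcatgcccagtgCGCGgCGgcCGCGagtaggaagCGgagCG
These stretches held 14, 24 and 21 CpGs at GC contents of 71.3%, 75.3% and 74.7%, respectively. In the 201 bp at the peaks of the same genes there were 7, 4 and 1 CpGs, at GC contents of 42.8%, 42.3% and 46.3%. Fezf2 had fewer CpGs upstream of the TSS than at the peak (5 and 8), at GC contents of 58.7% and 51.2%. For Etv5 there were 3 CpGs upstream of the TSS and 0 at the peak, and the GC contents differed by less than 1 percentage point.

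The flanking peaks were found on both sides of the TSS. There were 6038 downstream and 5746 upstream, so that 51.2% were downstream (50.3 to 52.1%), and 51.2% of the genome at this distance from a TSS is also downstream. Peak density, the number of peaks per Mb of genome at the same distance, was 84.6 upstream (82.5 to 86.9, exact Poisson interval) and 84.8 downstream (82.6 to 86.9). Closer than 500 bp the sides were unequal, with 95.8 peaks per Mb upstream (92.2 to 99.5) and 68.4 downstream (65.4 to 71.5). At 5 to 10 kb the densities were 53.5 and 58.4, and over both sides the density at 500 to 2000 bp was 1.51 times that at 5 to 10 kb (1.48 to 1.55). The same ratio was 1.33 for activin-free OTX2 (1.30 to 1.36), 1.39 for ZIC2 (1.36 to 1.43) and 1.12 for SOX2 (1.08 to 1.17).

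Downstream peaks lay mainly in introns. Of the downstream midpoints 83.4% were in an intron, 6.92% were intergenic, 3.08% were in a UTR and 2.55% in coding sequence, and 87.8% were within the gene of the nearest TSS. Upstream midpoints were intergenic in 55.3% and intronic in 40.4% of cases. Since genes have alternative TSSs, 28.8% of upstream midpoints were within the gene whose TSS was nearest, and 15.9% were within another gene only. The nearest TSS was of a protein-coding gene for 9843 peaks, which is 83.5%, and of a small RNA gene for 715 peaks. The protein-coding share was 81.5% for OTX2 peaks closer than 500 bp and 73.8% over all OTX2 peaks.

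The position of the peaks relative to the TSS depended on the kind of promoter. TSSs were sorted by whether an EpiSC ZIC2 peak covered them and by whether the 250 bp to either side were CpG-rich (GC content of at least 55% and at least 0.6 times the CpGs expected from base composition). The 28323 TSSs with both features, 32.6% of all TSSs, were nearest to 4817 flanking peaks, or 40.9% of the total. About as many flanking peaks, 4825 or also 40.9%, were nearest to the 40777 TSSs with neither feature, which are 47.0% of all TSSs. At the TSSs with both features, OTX2 peak density had a dip at the TSS, with 47.1 peaks per Mb in the 100 bp upstream and 40.8 in the 100 bp downstream. It rose to 259 peaks per Mb at 500 to 749 bp upstream (238 to 281) and to 208 at 750 to 999 bp downstream (191 to 228). At 1750 to 2000 bp it was 121 upstream and 162 downstream, and at 5 to 10 kb it was 76.7 and 101. Thus the bin of highest density lay within 500 to 2000 bp on both sides at these promoters. Bins were 100 bp wide below 500 bp and about 250 bp wide from there to 2000 bp. Upstream, the density was already 230 at 300 to 399 bp (199 to 263) and 236 at 400 to 499 bp (205 to 270). These intervals overlap that of the highest bin, so the upstream maximum is not set apart from the distances just under 500 bp.

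**Figure D1:**
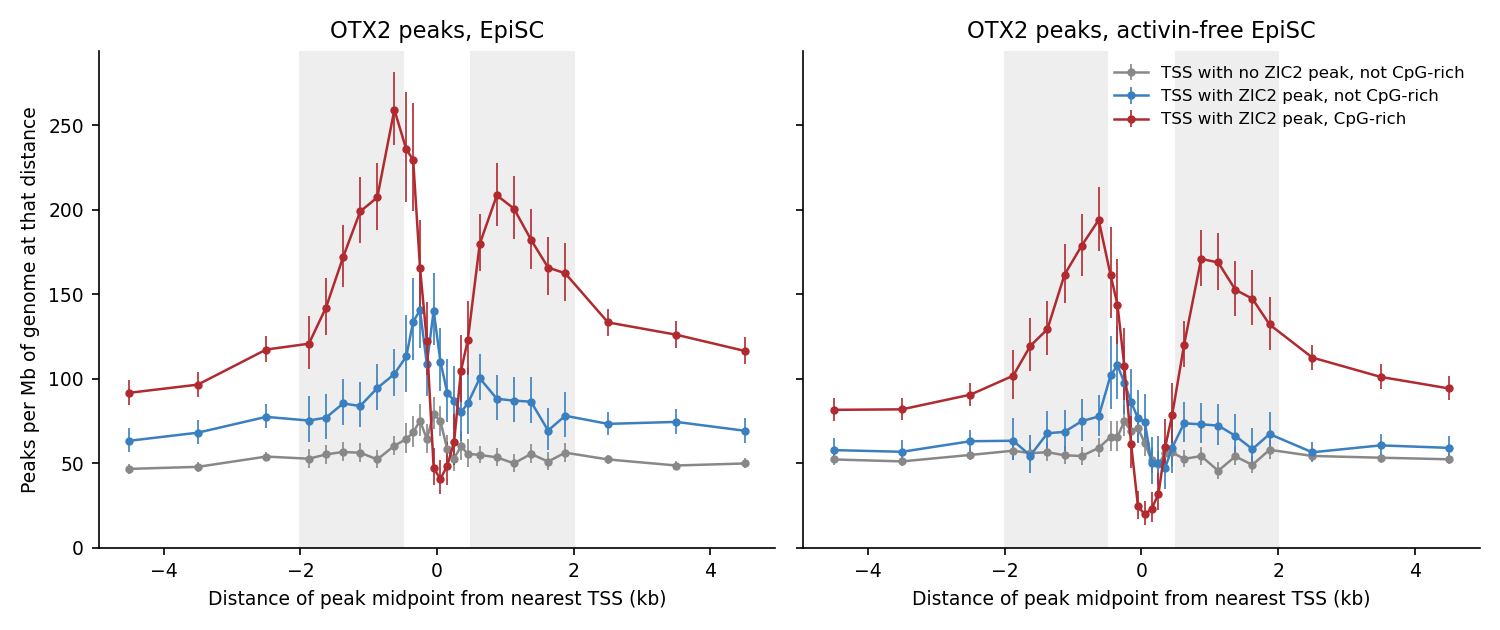
Density of OTX2 peaks (peaks per Mb of genome at that distance) against the distance of the peak midpoint from the nearest TSS (kb, upstream to the left), in EpiSCs and in activin-free EpiSCs, for 3 kinds of TSS. Bars are 95% Poisson intervals, which cover counting error only, and shading marks 500 to 2000 bp. At TSSs with a ZIC2 peak and CpG-rich sequence the density had a dip at the TSS between maxima of 259 and 208 peaks per Mb in EpiSCs and of 194 and 171 without activin.

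At TSSs without CpG-rich sequence the EpiSC density was higher close to the TSS than at 500 to 2000 bp. The 40777 TSSs with neither feature had 79.4 peaks per Mb in the 100 bp upstream, and 55.7 upstream and 53.5 downstream over 500 to 2000 bp. At the 16231 TSSs with a ZIC2 peak but without CpG-rich sequence, there were 128 peaks per Mb upstream (118 to 138) and 92.1 downstream (84.0 to 101) closer than 500 bp, and over 500 to 2000 bp there were 87.2 (81.8 to 92.8) and 85.5 (80.3 to 91.0), so that the downstream intervals overlap. The 1472 TSSs that were CpG-rich without a ZIC2 peak were nearest to 167 flanking peaks. Their density in the 100 bp next to the TSS was 34.1 peaks per Mb upstream (7.04 to 99.8, from 3 peaks) and 32.1 downstream (6.62 to 93.8, from 3 peaks). It was higher over 500 to 2000 bp, with 89.1 upstream (69.7 to 112) and 105 downstream (84.9 to 128), but these intervals overlap. Over all distances under 500 bp there were 104 peaks per Mb upstream (72.8 to 145) and 50.9 downstream (30.7 to 79.5). Upstream, the density under 500 bp was thus not lower than over 500 to 2000 bp.

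The activin-free OTX2 list, which the rule did not use, had the same dip at CpG-rich promoters. At CpG-rich TSSs with a ZIC2 peak its density was 24.5 peaks per Mb in the 100 bp upstream and 19.8 in the 100 bp downstream, 194 at 500 to 749 bp upstream (176 to 213) and 171 at 750 to 999 bp downstream (155 to 188). The lists of both cultures share many peaks, as described below, so this profile is not an independent one. At TSSs with a ZIC2 peak but without CpG-rich sequence the activin-free profile was another than in EpiSCs, with 76.6 peaks per Mb in the 100 bp upstream (61.9 to 93.6, against 140 in EpiSCs), 108 at 300 to 399 bp upstream (87.8 to 131, against 134) and 68.3 over 500 to 2000 bp.

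A ZIC2 peak covered the nearest TSS of 57.6% of the flanking peaks (56.7 to 58.5%), against 46.3% over all OTX2 peaks. This share was 50.6% for OTX2 peaks closer than 500 bp, 50.1% at 2 to 5 kb and 36.5% farther than 50 kb away. Within the flanking peaks it was highest at 750 to 999 bp with 60.8% and lowest at 1750 to 2000 bp with 52.4%. In the activin-free ZIC2 list 55.8% had a ZIC2 peak over the nearest TSS, against 44.3% over all OTX2 peaks and 49.0% of all TSSs.

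The share of TSSs under a ZIC2 peak rose with GC content, both at TSSs with a flanking OTX2 peak and at those without. Counted by TSS, a ZIC2 peak covered 57.6% of the TSSs nearest to a flanking peak and 51.3% of all TSSs. For promoters of over 65% GC within 250 bp of the TSS, these shares were 98.2% of 2837 TSSs with a flanking peak (97.7 to 98.7%) and 97.0% of 14196 TSSs with no OTX2 peak within 2000 bp assigned to them (96.7 to 97.3%). In the range of 50 to 55% GC they were 47.0% (44.5 to 49.5%) and 39.2% (38.3 to 40.1%), and under 40% GC they were 0.237% and 0.315%. The TSSs with an OTX2 peak closer than 500 bp and no flanking peak had a ZIC2 peak in 58.3% of cases at 50 to 55% GC (54.7 to 61.8%), more often than those with a flanking peak by over the counting error.

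**Figure D2:**
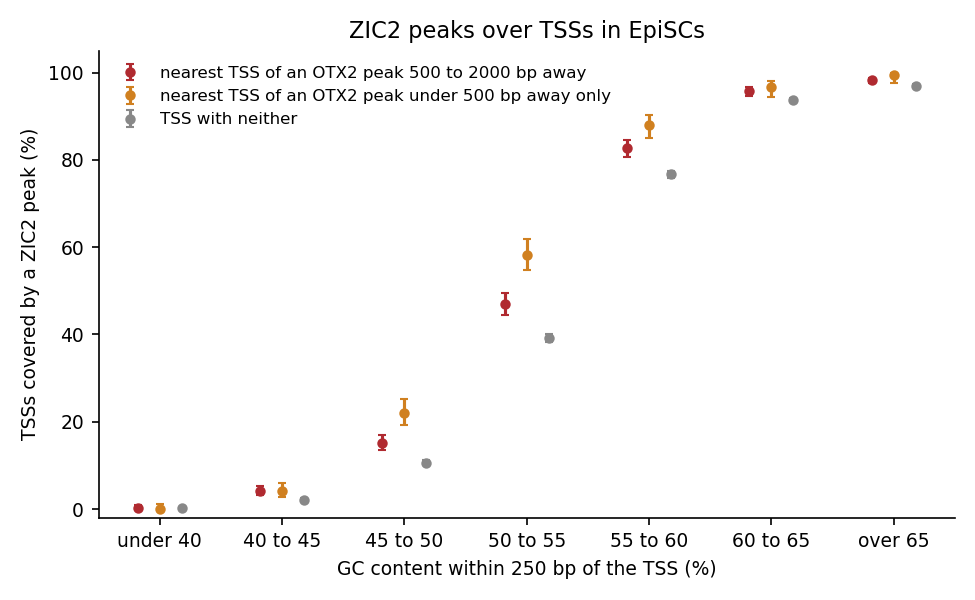
Share of TSSs covered by an EpiSC ZIC2 peak (%) against the GC content within 250 bp of the TSS (%), for TSSs with an OTX2 peak 500 to 2000 bp away, for those with an OTX2 peak under 500 bp away only, and for TSSs with neither. Bars are 95% Wilson intervals. All 3 sets rose from at most 0.315% at the lowest GC content to at least 97.0% at the highest, and they differed most at 50 to 55% GC, with 47.0%, 58.3% and 39.2%.

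Flanking OTX2 peaks often touched a ZIC2 peak without lying at the same position. A ZIC2 peak overlapped 41.4% of them by at least 1 bp, against 17.8% of all OTX2 peaks. OTX2 peaks closer than 500 bp to a TSS had a higher share with 57.4%, and those at 2 to 5 kb had 16.1%. Within the flanking peaks the share fell from 61.9% at 500 to 749 bp to 21.4% at 1750 to 2000 bp. When the overlap had to span 50% or more of each peak, the share was 5.41%. The ZIC2 peaks that covered the nearest TSS were broad, with a median width of 1490 bp. In these 6792 cases, the OTX2 midpoint lay inside the ZIC2 peak in 20.6% (19.6 to 21.5%) and otherwise at a median of 583 bp from its edge. Flanking OTX2 peaks had a median width of 839.5 bp, and the share of 5.41% depends on the widths of both peaks. Neither that share nor the 20.6% is given here for other OTX2 peaks, so they are not shown to be particular to flanking peaks.

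Of the flanking peaks 4220 had a ZIC2 peak both over the TSS and at the OTX2 peak, 2572 had it over the TSS only, 655 at the OTX2 peak only, and 4337 had it at neither. Their median OTX2 scores were 128.0, 95.9, 117.6 and 102.7, respectively. The other TFs were found less often at flanking peaks than ZIC2. SOX2 overlapped 8.64% of them, against 7.58% of all OTX2 peaks. POU5F1 overlapped 3.73% (against 4.9%) and POU3F1 3.72% (against 7.06%). In the activin-free lists the shares were 10.2% for SOX2 (against 10.0%), 7.09% for POU5F1 (against 8.76%) and 4.34% for POU3F1 (against 7.17%). With ZIC2 included, any of the other 4 TFs overlapped 49.5% of the flanking peaks in the EpiSC lists (against 31.3%) and 47.8% in the activin-free lists (against 32.8%). For OTX2 peaks closer than 500 bp to a TSS these shares were higher, with 64.4% and 63.7%.

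GGATTA, searched for on both strands within 100 bp of the midpoint, occurred at 21.2% of the flanking peaks (20.5 to 22.0%), against 23.6% of all OTX2 peaks. In windows of the same size centered 1000 bp to either side it was found in 8.62%, and in the window at the nearest TSS in 4.63%. The share in peaks was 2.46 times that in the windows to either side, compared with 3.33 for peaks farther than 50 kb from a TSS (25.8% against 7.75%). This ratio was 2.14 for peaks closer than 500 bp, 2.18 at 2 to 5 kb, 2.61 at 5 to 50 kb and 2.62 over all OTX2 peaks. The sequence was thus more frequent at the peak than at the promoter beside it, although most flanking peaks did not have it within 100 bp. The same held over all OTX2 peaks, with 5.24% in the window at the nearest TSS. Mean GC content was 44.4% at flanking peaks and 48.2% in the windows to either side, and 42.7% and 41.6% for peaks beyond 50 kb. The part of base composition in these contrasts was not tested. GGATTA was found at 17.8% of the flanking peaks with ZIC2 at the TSS and at the peak (16.72 to 19.03%) and at 23.6% of those with ZIC2 at neither (22.3 to 24.9%). GGTAAT, a related sequence, was present at 6.60% of flanking peaks, against 7.22% of all OTX2 peaks and 4.60% of the windows to either side.

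**Figure D3:**
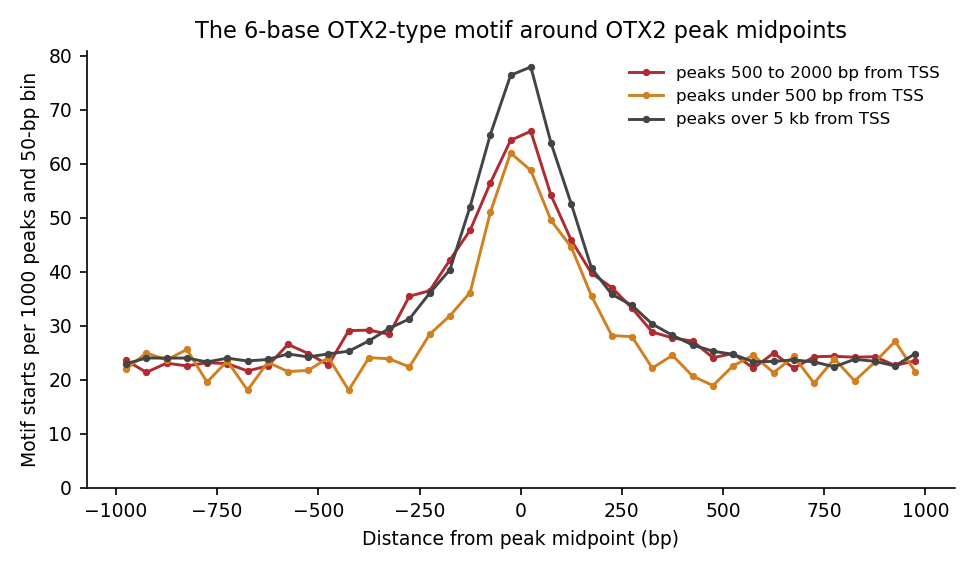
Number of GGATTA motif starts on either strand per 1000 OTX2 peaks and bin of 50 bp (y axis) against the distance from the peak midpoint in bp (x axis), for peaks at 3 distances from a TSS. Flanking peaks reached 66.0 starts per 1000 peaks next to the midpoint, between those under 500 bp (62.0) and those over 5 kb (77.9) from a TSS, and fell to 23.6 at 1000 bp.

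The letters around GGATTA differed between the peaks and the windows beside them. GGGATTAA, which is part of the consensus of the mouse B1 repeat, made up 19.2% of the matches at flanking peaks and 34.3% of those in the windows to either side. Its frequency was 45.4 per 1000 flanking peaks and 30.7 per 1000 windows, a ratio of 1.48. GGATTA in all other surroundings occurred 192 times per 1000 flanking peaks and 58.9 times per 1000 windows, a ratio of 3.26, and the ratio over all OTX2 peaks was 3.25. The first match in the Etv5 sequence above is of the B1 type, and that of Lrrc1 is not. Repeat annotation was not used here.

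Flanking peaks overlapped an activin-free OTX2 peak in 8705 cases, which is 73.9% (73.1 to 74.7%), against 78.1% of all OTX2 peaks. The share rose with the distance from the TSS, from 70.0% under 500 bp (68.7 to 71.3%) over 75.8% at 2 to 5 kb and 78.4% at 5 to 50 kb to 83.5% beyond 50 kb (82.9 to 84.0%). This order was not that of the scores, since flanking peaks had a median score of 108.9, compared with 99.2 for all OTX2 peaks and 90.5 beyond 50 kb. When all OTX2 peaks were divided into quintiles by score, in the lowest quintile, 38.1% of 2006 flanking peaks were found again (36.0 to 40.3%), compared with 63.0% of 4620 peaks beyond 50 kb (61.6 to 64.3%). In the highest quintile the shares were 99.4% and 99.9%.

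**Figure D4:**
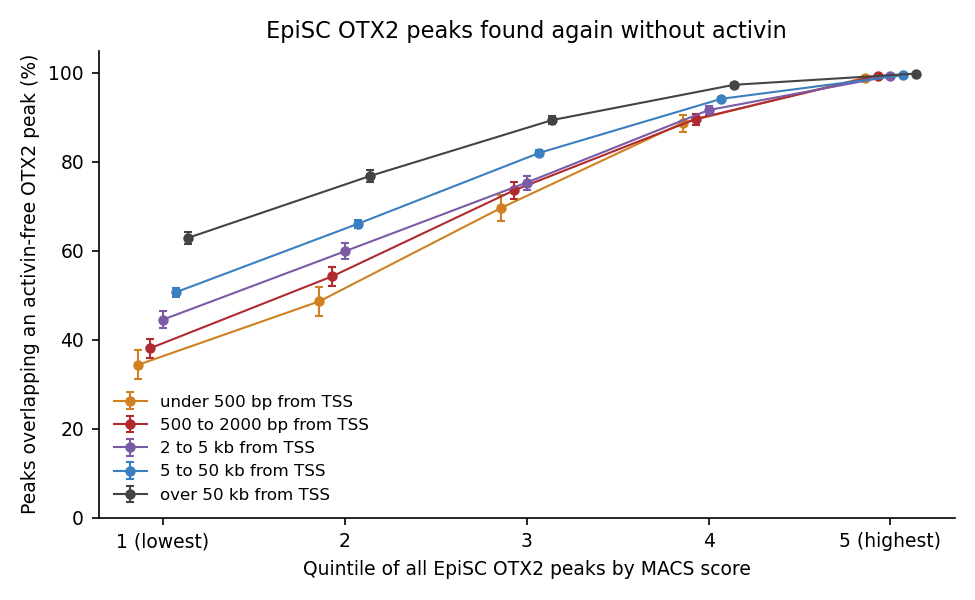
Share of EpiSC OTX2 peaks that overlapped an activin-free OTX2 peak (%) by quintile of the MACS score among all EpiSC OTX2 peaks, for 5 distances from the nearest TSS. Bars are 95% Wilson intervals. In the lowest quintile the share rose with distance from 34.4% under 500 bp and 38.1% at 500 to 2000 bp to 63.0% beyond 50 kb, and in the highest quintile all 5 distances were at 98.9% or more.

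Among the flanking peaks found again, the median score was 140.3 in EpiSCs and 171.9 in activin-free EpiSCs, and 62.7% had the higher score without activin, compared with 71.4% of all OTX2 peaks found again. Flanking peaks without an activin-free peak had a median score of 67.6. Conversely, 10386 activin-free OTX2 peaks lay 500 to 2000 bp from a TSS, 9.12% of that list (8.96 to 9.29%). An EpiSC OTX2 peak overlapped 80.1% of them (79.3 to 80.8%), compared with 67.5% of all activin-free OTX2 peaks. Both directions thus gave relatively fewer peaks near promoters in the activin-free list. Whether the libraries differed in depth or in signal over background was not tested.

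The peak scores on either side of the distance limits were similar. The 426 peaks at 450 to 499 bp had a median score of 104.6 and the 465 peaks at 500 to 549 bp one of 113.9, while the 322 peaks at 1951 to 2000 bp had 114.7 and the 325 peaks at 2001 to 2050 bp had 111.6. Of the flanking peaks, 5.49% were wide enough to cover a TSS.

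Flanking peaks were assigned to 7211 of 22350 protein-coding genes, which is 32.3%. There were 4186 genes with a peak upstream (18.7%), 4405 with a peak downstream (19.7%) and 1380 with both. In the activin-free list 6428 genes, or 28.8%, had an OTX2 peak at this distance. Genes with many annotated TSSs had such peaks more often, with 19.9% of genes with 1 TSS and 57.9% of those with 7 or more. Gene lists are therefore given beside the share of all protein-coding genes with like numbers of TSSs, and the lists were not tested.

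**Figure D5:**
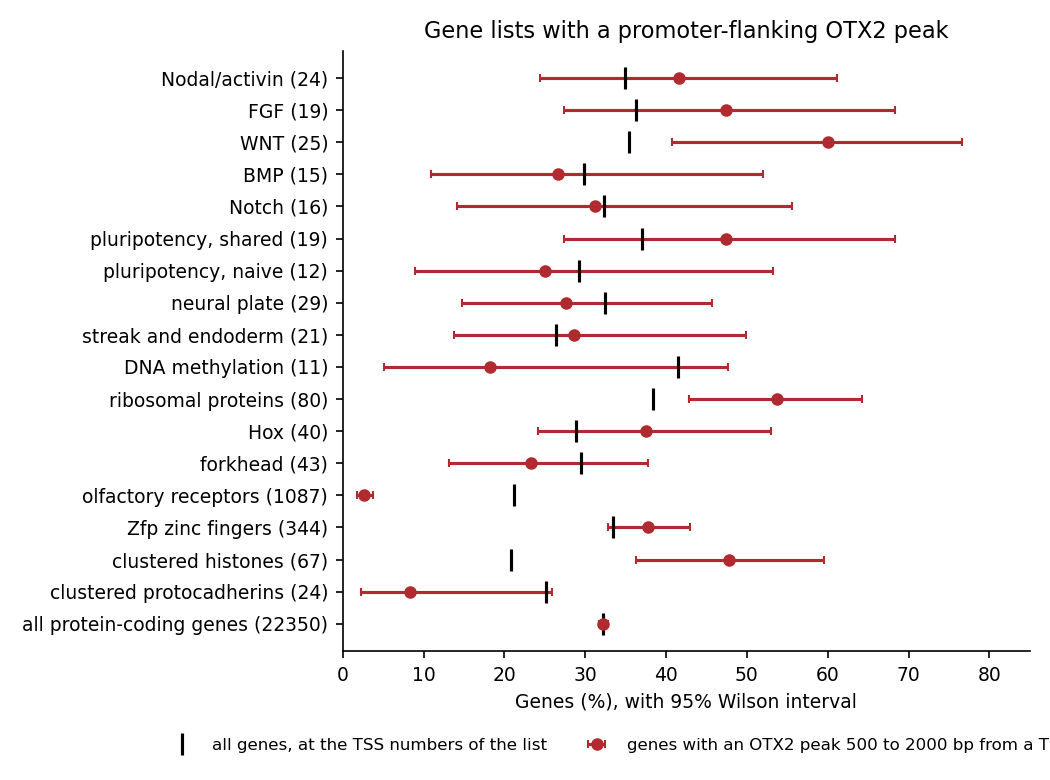
Share of the genes of each list with an OTX2 peak 500 to 2000 bp from a TSS (%, x axis), with 95% Wilson intervals, and the number of genes per list in parentheses. Vertical ticks give the share over all protein-coding genes at the TSS numbers of the list. The interval of the WNT, ribosomal protein and clustered histone genes lay above the tick, with 15 of 25, 43 of 80 and 32 of 67 genes, and that of the olfactory receptors lay below it with 2.58%.

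Activin acts through the receptors and SMAD proteins that it shares with NODAL, and 10 of 24 genes of this pathway had a flanking peak, all 10 of them upstream and 5 also downstream (41.7%, compared with 35.0% of genes with like TSS numbers). Tdgf1, the coreceptor of NODAL, had a peak 1390 bp upstream of its TSS with a score of 834 in EpiSCs and 492 without activin (chr9:110848932-110851172). For Tgif1, a corepressor of SMADs, the scores were 707 and 938 at 990 bp upstream. The peak of Nodal itself was of middling height, with scores of 99.99 and 142 at 1694 bp upstream. Of these 3 peaks, that of Tdgf1 had the lower score without activin, and those of Tgif1 and Nodal had the higher.

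Among FGF genes, 9 of 19 gene entries had a flanking peak (47.4%, compared with 36.3%), where Fgfr1 stands for 2 entries of the annotation. The ETS factor gene Etv4 had scores of 292 and 273 in the EpiSC and activin-free lists, and Etv5 of 271 and 164. Spry2, a feedback inhibitor of FGF signaling, had 155 and 112, and Il17rd, another inhibitor, had 222 and 142. Fgf5, a marker of the epiblast after implantation, had a peak 1725 bp downstream in an intron with scores of 133 and 102, and an upstream peak of 50.5 that was near the lowest score of the list and had no activin-free peak. These 5 shared peaks all had the lower score without activin, but apart from Fgf5 the genes were named by their EpiSC score. Over all flanking peaks found again, 62.7% had the higher score without activin. In the activin-free list 10 of the 19 entries had an OTX2 peak at this distance.

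Of the WNT list, 15 of 25 genes had a flanking peak (95% interval of 40.7 to 76.6%, compared with 35.4%). The receptor gene Fzd2 had scores of 672 and 817 at 1653 bp upstream, and Tcf7l1, a TF that represses WNT targets, had 328 and 447 at 1002 bp upstream. The ligand gene Wnt3 had scores of 229 and 219 at 858 bp downstream. Wnt8a, another ligand gene, had 202 and 131 at 1078 bp upstream. The ZIC2 peak over the TSS had a score of 422 at Wnt8a and of at least 2026 at the other three. Of the BMP list 4 of 15 genes had a peak (26.7%, compared with 29.9%), with scores of 713 and 1333 for Smad5, 127 and 236 for Id3, and 93.5 and 109 for Id2. The peak of Bmp7 had a score of 83.6 and no activin-free counterpart. Of the Notch list 5 of 16 genes had a peak (31.3%, compared with 32.3%), which included Hey1 (284 and 228), Hey2 (239 and 289), Dll3 (183 and 135) and Notch2 (98.9 and 86.5).

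Of the genes that naive cells and EpiSCs both use for pluripotency, 9 of 19 had a flanking peak (47.4%, compared with 37.0%). Sall4 had the highest of them apart from Otx2, a peak of 3409 bp in an intron 1621 bp downstream of the nearest TSS, with scores of 1634 in EpiSCs and 2188 without activin. It overlapped a ZIC2 peak of score 3217 that covered this TSS, a SOX2 peak of score 139 and a POU5F1 peak of score 65.2. Mycn had scores of 172 and 191 at 1814 bp upstream. Of the genes of naive pluripotency, 3 of 12 had a flanking peak (25.0%, compared with 29.2%), with scores of 186 and 202 for Nr5a2, 108 and 108 for Tbx3, and 59.0 and 84.5 for Klf5. In the activin-free list 5 of the 12 had an OTX2 peak at this distance.

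Of the neural plate genes 8 of 29 had a flanking peak (27.6%, compared with 32.4%). The Fezf2 peak had scores of 364 and 497 and lay at 1014 bp upstream, without a ZIC2 peak over the TSS in either culture. The OTX2 peak itself overlapped a ZIC2 peak, with ZIC2 scores of 192 in EpiSCs and 140 without activin. Pax5 had scores of 138 and 75.9, and Meis1 had 139 and 175. Of the primitive streak and endoderm genes 6 of 21 had one (28.6%, compared with 26.4%), among them Evx1 (551 and 486), Sox17 (392 and 377), Gata4 (361 and 234) and Foxa1 (126 and 278). The DNA methylation genes had 2 of 11 (18.2%, 5.14 to 47.7%, compared with 41.5%), with Dnmt3b at a score of 127 and no activin-free peak, and Tdg at 52.8 and 67.1.

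Gene families were counted in the same way. Clustered histone genes had a flanking peak in 32 of 67 cases (47.8%, 36.3 to 59.5%, compared with 20.8%), and 28 of these genes had it downstream. Ribosomal protein genes had one in 43 of 80 cases (53.8%, 42.9 to 64.3%, compared with 38.4%), and the highest were Rpl6 (632 and 195), Rps12 (503 and 572), Rps6 (431 and 517) and Rpl11 (405 and 578). Of these 4 only Rpl6 had the lower score without activin. Hox genes had one in 15 of 40 cases (37.5%, compared with 28.9%), with Hoxc13 the highest at 520 and 580, and 12 of the 15 had it upstream. Forkhead genes had 10 of 43 (23.3%, compared with 29.5%), Zfp zinc finger genes 130 of 344 (37.8%, compared with 33.4%) and clustered protocadherin genes 2 of 24 (8.33%, compared with 25.1%). Olfactory receptor genes, which code for odorant receptors and lie in gene clusters, had 28 of 1087 (2.58%, 1.79 to 3.70%, compared with 21.2%). In the activin-free list the numbers were higher for olfactory receptor genes (58, or 5.34%), clustered protocadherin genes (5) and forkhead genes (12). They were lower for ribosomal protein (31), Hox (13) and Zfp genes (123), as over all protein-coding genes, and clustered histone genes again had 32. Of the olfactory receptor genes 0.828% had a ZIC2 peak over a TSS, against 66.1% of all protein-coding genes.

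The flanking peaks with scores over 1000 were wide and were all found without activin. There were 52, with widths of 740 to 9815 bp and a median of 2875 bp, and all 52 overlapped an activin-free OTX2 peak. GGATTA was present somewhere in 46 of them, against 52.8% of all flanking peaks, which had a median width of 839.5 bp. In the highest quintile of scores 99.4% of the flanking peaks had an activin-free peak, as given above. A ZIC2 peak was over the nearest TSS in 20 of the 52 (38.5%), fewer than the 57.6% of all flanking peaks, and it overlapped 30 of the OTX2 peaks themselves (57.7%, against 41.4%).

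Among the highest upstream peaks were those of Btn2a2, a gene of the butyrophilin family, with scores of 1735 and 2296, and Ywhae, which codes for a 14-3-3 protein, with 1712 and 3100. Rad54b, a gene of recombination repair, had 1565 and 1995. Downstream, Pabpc1, which codes for the cytoplasmic poly(A) binding protein, had 1644 and 2998, Igf2bp1, which codes for an mRNA binding protein, had 1632 and 1581, Mettl3, which codes for the RNA methyltransferase for N6-methyladenosine, had 1613 and 1764, and Hsp90aa1, a heat shock protein gene, had 1596 and 1651. Of these 7 peaks, Igf2bp1 had the lower score without activin. There was no ZIC2 peak in either culture over the TSS or the OTX2 peak at Btn2a2, Ywhae, Rad54b, Pabpc1 and Mettl3.

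Flanking peaks at genes of the TFs need a separate account, since each library was made from cells with a plasmid that held the coding sequence of its TF. The highest flanking peak of the list was at Otx2 itself, at chr14:49280600-49281339 and 637 bp downstream of a TSS, with scores of 2045 and 2206, and 176 of its 740 bp were coding sequence of Otx2. A further peak in an Otx2 intron had scores of 55.4 and 65.3 and contained no coding sequence. At Zic2 a flanking peak had scores of 632 and 1450, and 1073 of its 1478 bp were coding. It overlapped ZIC2 (3100 and 3100) and POU3F1 peaks (1118 and 1459) in both cultures, and activin-free SOX2 (721) and POU5F1 peaks (236). At Sox2 a peak of score 51.9 had no activin-free counterpart, and 318 of its 610 bp were coding. It overlapped EpiSC ZIC2 and SOX2 peaks, both of score 3100. The study ascribed the strong SOX2 peak on Sox2 to carryover of the SOX2 plasmid. The plasmid of the OTX2 libraries held the coding sequence of Otx2 and not that of Zic2 or Sox2. The contribution of plasmid DNA to the peaks at Otx2, Zic2 and Sox2 was not tested.

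Some high flanking peaks had no activin-free OTX2 peak and no such midpoint within 500 bp. The highest were those of Rnmt (score of 258), Lrrc1 (251), Sbno1 (225) and Nprl3 (222). Rnmt codes for the methyltransferase of the mRNA cap, and Nprl3 for a regulator of amino acid signaling. At Lrrc1 and Sbno1 a ZIC2 peak covered the TSS and a ZIC2 peak overlapped the OTX2 peak in both cultures, with EpiSC scores of 2869 and 1219. At Rnmt no ZIC2 peak was present in either culture.

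Several flanking peaks could fall in 1 gene. There were 1925 genes with 2 or more, and the largest number was 8, in Sgms1, a sphingomyelin synthase gene with 15 TSSs, and in Ipo9, an importin gene with 14. In Ipo9 all 8 peaks were intronic, 5 of them downstream and 3 upstream of the nearest TSS, with EpiSC scores of 56.5 to 765, and 6 had an activin-free peak. All 8 in Sgms1 had an activin-free peak, with EpiSC scores of 66.9 to 486. Cct4, a chaperonin gene, and Nf2, the gene of the tumor suppressor merlin, were among 6 genes with 7 each.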

How the data were processed

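Reads had been aligned to the mm9 build by the authors using Bowtie2, and MACS1.4 with input DNA as control had given the peaks. The deposited lists give position and score of each peak, where the score was made by the authors' peak caller as 10 times the negative log10 of its p-value. They hold no reads, so depth is unknown. All 10 lists were used and the input was not analysed here. Positions are counted from 1. The reference NCBIM37 (mm9) and GENCODE vM1 matched in chromosome names and lengths.

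Each peak midpoint was assigned to the nearest of 86803 TSSs, with ties given to protein-coding genes. Peaks overlapped from 1 shared bp. A ZIC2 peak covered a TSS when it contained that base. Shares have 95% Wilson intervals and densities exact Poisson intervals, and no p-value was calculated. Distance and overlap assignment was tested on simulated data, where 100% of 2000 simulated peaks were recovered.

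The peaks, gene lists and tests were chosen with earlier results of these data known. Named genes are those with the 6 highest scores on each side, up to 4 per gene list, the 4 highest without an activin-free peak or without ZIC2, the 4 genes with most peaks (ties in order of gene identifier), and genes of the TFs and genes the study names. Fgf5, Nodal, Mycn and Sall4 belong to the last group. Some named genes and sequences are not reported here. There were 25 alternatives and 2 added after seeing the data. Python 3.11.15, numpy 2.4.6, pandas 2.3.3, scipy 1.17.1 and matplotlib 3.10.9 were used.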

Additional observations from a re-analysis of the deposited data

How the results depend on the processing

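Each TF had 1 library in each culture, so that no spread between replicates exists, and the lists hold only peaks above a minimum score. No paired analysis was possible because the groups have 1 library each and the labels give no replicate numbers. Of 27 alternatives, 9 moved a value by less than its counting interval or a count by less than 1.5 times. With a score of at least 100 there were 6483 flanking peaks, a density ratio of 1.63 and 4458 genes. With protein-coding TSSs alone the density ratio was 1.62, and 75.0% had a ZIC2 peak over the TSS. This share was 54.6% with ZIC2 scores of at least 100 and 63.3% with a ZIC2 peak within 500 bp of the TSS, and the activin-free ZIC2 share was 52.8% with scores of at least 100. ZIC2 overlap fell to 37.8% with ZIC2 scores of at least 100. When the overlap had to span 50% or more of each peak it was 5.41%, SOX2 overlap was 4.06% and activin-free OTX2 overlap 64.1%. The latter was 54.2% with activin-free scores of at least 100, 69.9% among the 50000 peaks of highest score per list, 67.3% with midpoints within 500 bp, and 72.9% without peaks wider than 2000 bp, an alternative chosen after seeing the data. In each of the 4 alternatives run for all distances the flanking peaks had a lower share than peaks beyond 5 kb, but with 50% or more of each peak overlapped they differed little from those at 2 to 5 kb (64.2%). GGATTA occurred within 200 bp of 33.8% of midpoints and anywhere in 52.8% of peaks.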
